A study of Bos taurus with 4 samples.

Results

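Aquaporins, the beta subunits of the sodium pump and the potassium channel KCNK1 were followed in bovine blastocysts that had developed from slow-frozen or from unfrozen morulae. The members were every probe of the bovine EmbryoGENE array whose annotated gene symbol was AQP1, AQP3, AQP7, AQP8, AQP9, AQP11, ATP1B1, ATP1B3 or KCNK1. These were 13 of the 43794 probes and 9 of the 15229 annotated genes, with 3 probes for ATP1B3, 2 each for AQP3 and AQP7, and 1 for every other gene.

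A blastocyst fills its cavity by moving ions and water across the trophectoderm, its outer epithelium. The sodium pump, an alpha subunit with a beta subunit that carries it to the membrane, sits in the basolateral membrane and pushes sodium towards the cavity, and water follows through aquaporins while tight junctions hold the seal. Most aquaporins pass water alone, whereas the aquaglyceroporins also pass small solutes such as glycerol. Glycerol was the cryoprotectant here, so the channels through which it could enter and leave the cells belong to the same family that serves cavity formation.

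All embryos were produced in vitro from abattoir ovaries and frozen-thawed semen of a dairy bull, and the labels give beef cattle as the breed. Compact morulae of the SF (slow-frozen) group stood for 10 min in 1.5 M glycerol with calf serum, were cooled at 0.5 °C per min to -35 °C, plunged into liquid nitrogen, warmed, freed of glycerol in sucrose and cultured to expanded blastocysts, while the Control morulae were cultured without freezing. The labels list cryopreservation as "Yes" for both groups, but the treatment field and the design name the controls as unfrozen. By the labels every pool held 7 expanded blastocysts of day 7 after fertilization. The study's methods give 5 to 7 embryos per pool and say that morulae were taken on that day, before freezing and further culture, so the age of the blastocysts is uncertain. Only embryos that reached the expanded stage were pooled, so morulae that did not survive freezing do not enter the measurement. Each of the 4 arrays carried 1 SF pool and 1 Control pool, and the SF pool was in Cy5 on arrays 1 and 2 and in Cy3 on arrays 3 and 4. Per the methods the pairs came from separate fertilization cycles, and having only 4 arrays limits how precise any ratio can be. Because whole embryos were pooled, fewer cells of a type and less RNA per cell cannot be told apart.

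Each channel had its own detection limit, the value that 95% of its 153 negative control spots stayed below after subtraction of the local background, and it ran from 44.8 to 173.8 intensity units. Between 24638 and 31529 probes were detected in a pool. A probe was tested when at least 4 of its 8 readings were detected, which held for 30473 probes (69.6%). Across these probes the SF over Control ratios of any pair of arrays correlated between -0.278 and 0.037, so the arrays had little of their differences in common. Markers of the trophectoderm were well detected, 13 of the 13 with a probe being tested, as were 7 of 7 markers of the inner cell mass. CDX2, GATA3, KRT8, POU5F1 and NANOG were detected in all 8 readings, but ASCL2 in 7, SOX2 in 6 and SALL4 in 5.

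Of the 13 member probes 9 passed the filter, and they stood for 6 of the 9 genes. Of these 9, 5 probes were above the limit in all 8 pools, those of AQP11 and KCNK1, both of AQP3 and 1 of ATP1B3, where 63.1% of all tested probes were. The brightest probe of ATP1B3 lay between 275 and 1299 times the limit and that of AQP3 between 19.3 and 114 times. AQP11 lay between 2.87 and 7.02 times the limit and KCNK1 between 1.56 and 3.18 times. The probe of ATP1B1 straddled the limit, from 0.871 to 1.11 times, and was detected in 2 of 4 SF and 2 of 4 Control pools. No probe of AQP1, AQP8 or AQP9 passed the filter. These multiples describe single probes and do not rank the genes, since probes differ in how well they bind.

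**Figure D1:**
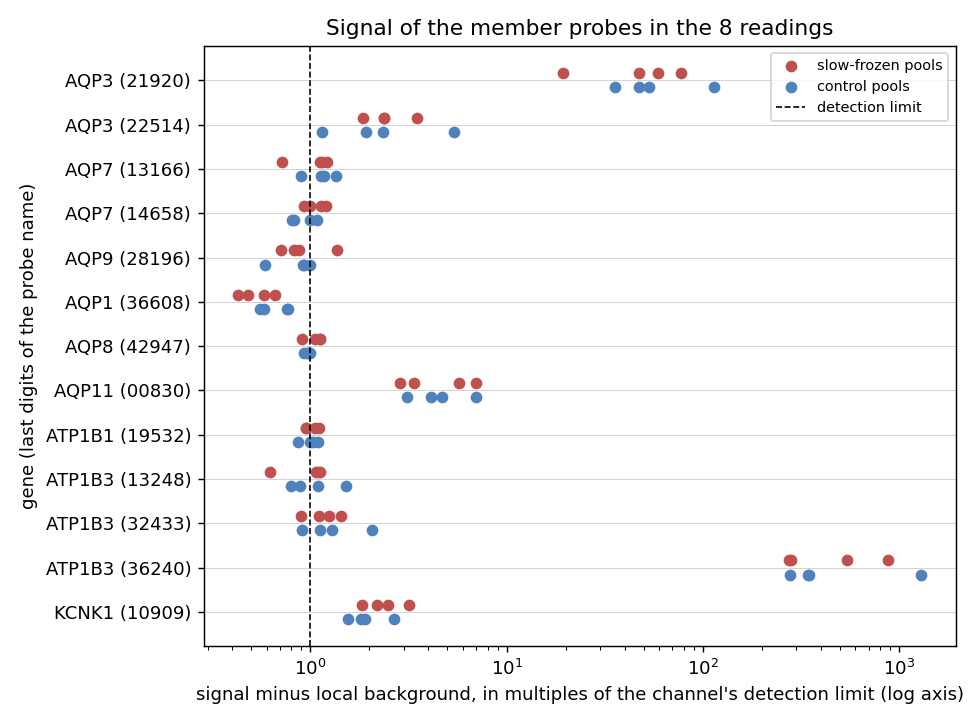
Signal minus local background of the 13 member probes in each of the 8 pools, in multiples of the detection limit of its channel on a log axis, with SF pools in red and Control pools in blue. The bright probes of AQP3 and ATP1B3 stand far to the right of the limit in every pool, while AQP1 stays below it in all 8 and ATP1B1 lies on it.

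AQP3, the aquaglyceroporin of many epithelia and a channel of the mouse trophectoderm, showed no steady difference between the groups. On its brightest probe (EMBV3_21920) the log2 ratio of SF over Control was 0.11, -0.31, -1.32 and 0.46 on arrays 1 to 4. The normalized log2 level in the SF pools was 12.74, 12.66, 11.52 and 12.90, against 12.63, 12.97, 12.84 and 12.44 in the Control pools. The SF pool of array 3 was thus the single low pool, and the other 7 lay between 12.44 and 12.97, so the groups overlapped. The signals behind the array 3 ratio were 3076 and 6176 intensity units, 19.3 and 35.7 times their limits. The fitted log2 ratio was -0.26 ± 0.29 (SE, n = 4 arrays), a 95% interval of -0.96 to 0.43, with an adjusted p of 1.00 in limma. It was -0.55 with median centring in place of loess and -0.15 with mean spot signals. It turned to 0.18 without array 3 and reached -0.71 without array 4, a fit in which array 3 alone stood for SF in Cy3. This probe varied more between arrays than most: its SD of 0.77 was exceeded by 5.34% of the tested probes.

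The second AQP3 probe (EMBV3_22514), also detected in all 8 pools, lay on the other side of 0 from the first on all 4 arrays. Its ratios were -0.04, 0.44, 0.49 and -0.40, and on array 3 the first probe minus the second came to -1.80 on the log2 scale. Its signal was lower, between 1.15 and 5.42 times the limit. The fitted ratio was 0.12 ± 0.20 (SE, n = 4), with 0.34 without array 4 and -0.10 without array 3. The transcript that each probe targets was not given in the annotation used here, so a change in AQP3 cannot be read from either probe alone.

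AQP7, the aquaglyceroporin through which fat cells release glycerol, was near the detection limit. Its tested probe (EMBV3_13166) was detected in 3 of 4 pools of each group, with ratios of -0.19, -0.59, -0.07 and 0.34 on arrays 1 to 4 and a fitted log2 ratio of -0.13 ± 0.16 (SE, n = 4). The interval of -0.51 to 0.25 leaves out a 1.5-fold rise and a 1.5-fold fall, but readings this close to the limit understate a true difference. With mean spot signals it was -0.0070, and it lay between -0.23 and -0.02 when single arrays were left out. The second probe (EMBV3_14658) was detected in 2 of 4 SF pools and 1 of 4 Control pools and was not tested. The probe of AQP9, the aquaglyceroporin of liver and leukocytes, was detected in 1 SF pool, that of array 2 at 1.37 times the limit, and in 0 Control pools. No fold is given for it.

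Neither classical water channel could be compared. AQP1, the water channel of red blood cells and kidney tubules, was detected in 0 of 8 readings, which ran from 0.428 to 0.774 times the limit. AQP8, which passes water, ammonia and hydrogen peroxide, was above the limit in the SF pools of arrays 1, 2 and 3, at 1.06, 1.12 and 1.12 times, and below it in that of array 4 and in all 4 Control pools, which ran from 0.928 to 0.993 times. No fold is given for AQP8, since the SF pool of array 4 was under the limit as well. The SF and Control levels of AQP8 overlapped once normalized, from 7.05 to 7.31 and from 7.03 to 7.29.

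AQP11, an intracellular member of the unorthodox branch of the family whose loss causes cystic kidneys in mice, was detected in every pool. Its signal minus background, in channels of unequal brightness, was 624, 508, 537 and 498 in the SF pools. In the Control pools it was 732, 710, 539 and 314. Its ratios were 0.24, 0.15, -0.41 and 0.01 on arrays 1 to 4, so the arrays with SF in Cy5 were above 0 and array 3 below. The fitted ratio was -0.0013 ± 0.15 (SE, n = 4), with a 95% interval of -0.36 to 0.36, or 0.780-fold to 1.28-fold.

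Since glycerol enters through aquaglyceroporins and not through classical water channels, these classes were to be set against each other on each array. No probe of AQP1 or AQP8 passed the filter, so the water channels had no value and the tested aquaglyceroporins, AQP3 and AQP7, were set against AQP11 instead. AQP11 belongs to the unorthodox branch, so the difference is no contrast of aquaglyceroporins with classical water channels. The mean log2 ratio of the aquaglyceroporins minus that of AQP11 was -0.32, -0.42, 0.17 and 0.17 on arrays 1 to 4. The mean was -0.10 ± 0.31 (SD, n = 4 arrays), smaller than its spread. It came to 0.0074 without array 2 and to -0.19 without array 3 or array 4. With the brightest AQP3 probe alone the difference from AQP11 was -0.13, -0.47, -0.90 and 0.45 on arrays 1 to 4. When every probe was used, detected or not, and AQP1 and AQP8 joined AQP11, the mean was 0.07. The aquaglyceroporins alone had -0.08, -0.26, -0.24 and 0.19 on arrays 1 to 4 with their tested probes. With all their probes, detected or not, they had 0.02, 0.05, -0.17 and 0.14.

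**Figure D2:**
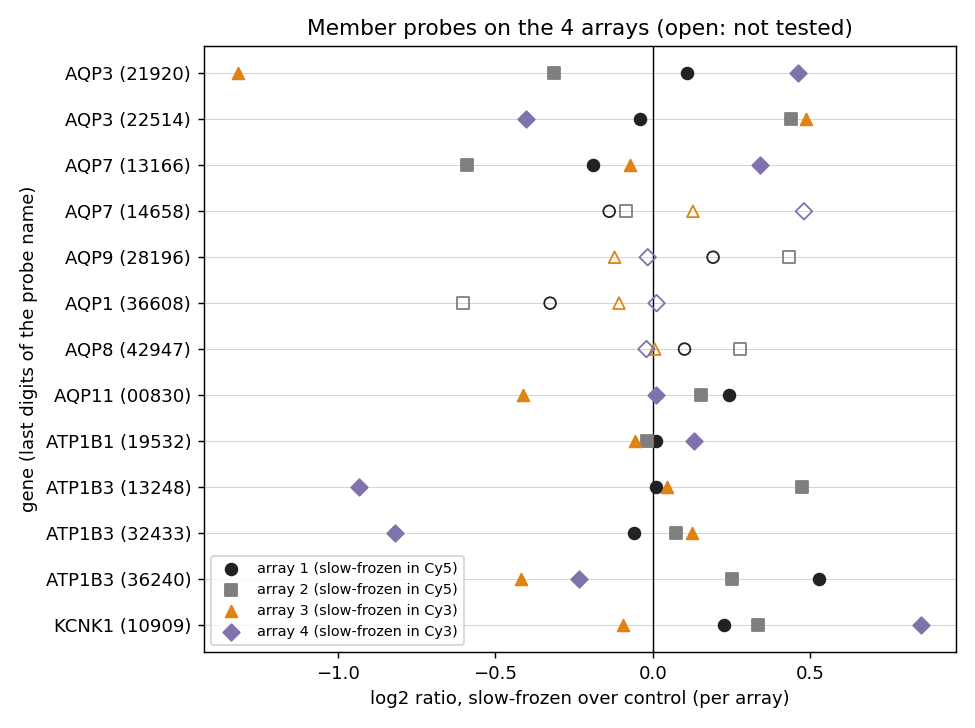
Log2 ratio of SF over Control for each member probe on each of the 4 arrays, with filled symbols for tested probes and open symbols for probes detected in under 4 of 8 readings. Each tested probe has arrays on both sides of 0, and the probes of AQP3 lie on opposite sides on every array.

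The beta subunits of the sodium pump also lay close to 0 on average. ATP1B1, the beta subunit through which the mouse pump is needed for cavity formation, had the steadiest ratios of the tested members, with 0.01, -0.02, -0.06 and 0.13 on arrays 1 to 4. Its fitted ratio was 0.017 ± 0.14 (SE, n = 4). The SD over the arrays was 0.081 and 97.7% of the tested probes had a larger one. With plain background subtraction the SD was 0.134. Because its readings lay at the detection limit, the small spread describes signal near background and is no bound on a change in this transcript.

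ATP1B3, a further beta subunit, gave a different picture on each of its probes. The brightest (EMBV3_36240) had signals of 59198, 63360, 44819 and 47839 intensity units in the SF pools and 43288, 58705, 60366 and 58212 in the Control pools. These readings lay in the upper part of the scanner's range, where differences can be compressed, although 0 member readings reached a raw intensity of 65000. Its ratios were 0.53 and 0.25 with SF in Cy5 and -0.42 and -0.23 with SF in Cy3. The Cy5 pool was thus the higher on every array, whichever group it held. The dye term was 0.36 in limma with an unadjusted p of 0.0444 and an adjusted p of 0.923, in a fit where 5.09% of all tested probes had an unadjusted p under 0.05 for that term. The treatment ratio, to which both orientations contributed equally, was 0.033 ± 0.14 (SE, n = 4). The SE leaves out this difference between orientations.

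The other ATP1B3 probes were near the limit. EMBV3_13248, detected in 5 of 8 readings, had 0.01, 0.47, 0.05 and -0.93 on arrays 1 to 4, and EMBV3_32433, detected in 6, had -0.06, 0.07, 0.12 and -0.82. On array 4 the SF pool had the lowest log2 level of the 8 pools on both probes and was under the limit. The Control pool of array 4 had the highest, 7.42 and 7.78, at 1.52 and 2.05 times the limit. On the other arrays the ratios of both probes were close to or above 0. Their fitted ratios were -0.10 ± 0.20 and -0.17 ± 0.19 (SE, n = 4), and these became 0.14 and 0.07 without array 4.

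KCNK1, also known as TWIK-1, a K2P potassium channel that carries leak currents and so helps to set the membrane potential, had a higher fitted ratio than the other tested members, though not with mean spot signals, where it had 0.11 and the second AQP3 probe 0.13, nor without array 4. Its signal minus background was 236, 230, 294 and 434 in the SF pools and 284, 327, 270 and 120 in the Control pools, in channels of unequal brightness. After normalization the log2 levels were 8.15, 8.39, 8.07 and 8.62 in the SF pools and 7.92, 8.06, 8.17 and 7.77 in the Control pools. Each SF pool exceeded its own Control pool except on array 3, and the groups overlapped only through that array. The ratios were 0.23, 0.33, -0.09 and 0.85. The fitted log2 ratio was 0.33 ± 0.19 (SE, n = 4), a 1.26-fold higher level with a 95% interval of 0.916-fold to 1.72-fold. In limma the unadjusted p was 0.129 and the adjusted p 1.00, and the exact two-sided sign-flip test over the 4 arrays gave p = 0.25, where 0.125 is the smallest it can give. Without array 4 the ratio was 0.09. Without array 3 it was 0.57, a fit in which array 4 alone stood for SF in Cy3.

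**Figure D3:**
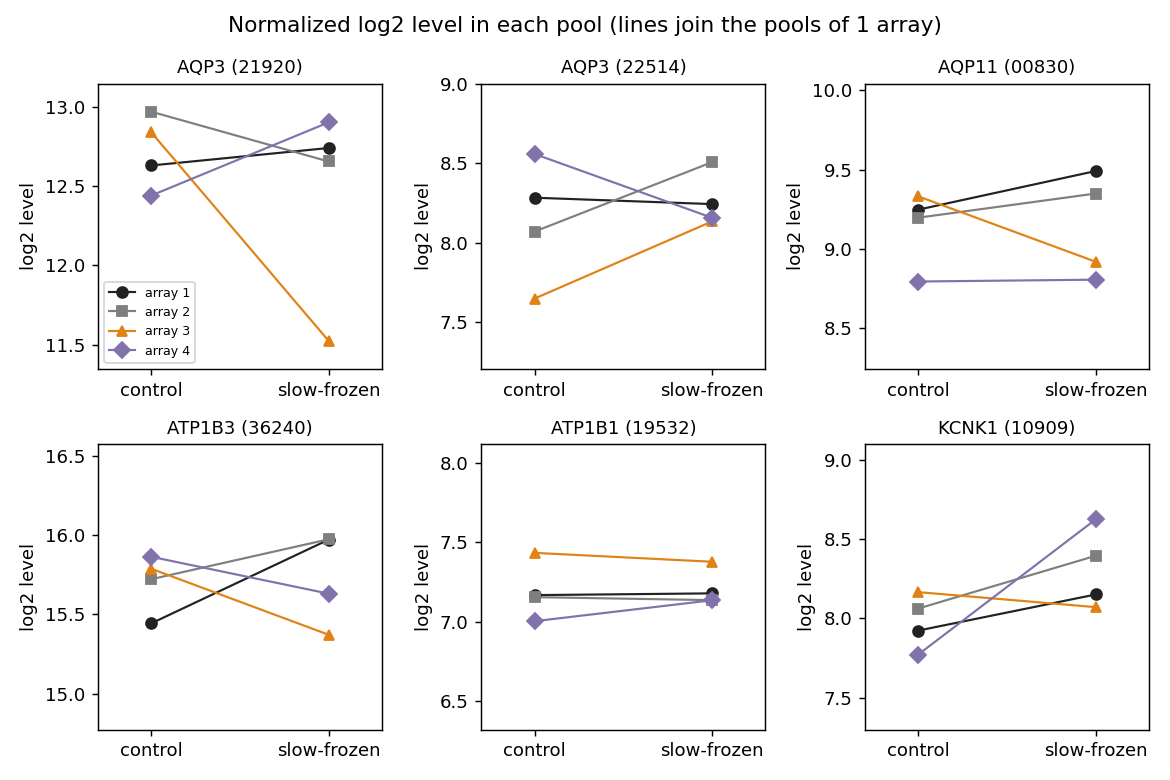
Normalized log2 level in each pool for 6 member probes, with a line joining the Control and SF pool of each array and axes of equal height. AQP3 on its brighter probe lies far lower in the SF pool on array 3, ATP1B1 is nearly flat, and KCNK1 lies higher in the SF pool on arrays 1, 2 and 4.

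Across the 9 tested member probes, 4 had a ratio above 0 and 5 below, with a median log2 ratio of -0.0013, while 50.6% of all tested probes were above 0 and 49.4% below, around a median of 0.0024. None passed the adjustment in limma, as was true of all 30473 tested probes (0%), and 0 of 9 had an unadjusted p under 0.05, against 1.88% of all tested probes, of which 1.05% were higher in SF and 0.83% lower. A 1.5-fold difference with an unadjusted p under 0.05 was found for 0.404% of all probes and 0 of 9 members. Those probes were 84 probes higher in SF and 39 lower, a split that median centring in place of loess turned to 25 and 494. Ratios with the same sign on all 4 arrays were found for 7.86% of all tested probes and for 0 members, and SF and Control levels that did not overlap for 0.725% and for 0 members. The 95% intervals, which rest on limma's moderated error and so leave out differences between dye orientations, had their lowest bound at 0.516-fold, for the bright AQP3 probe, and their highest at 1.72-fold, for KCNK1.

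**Figure D4:**
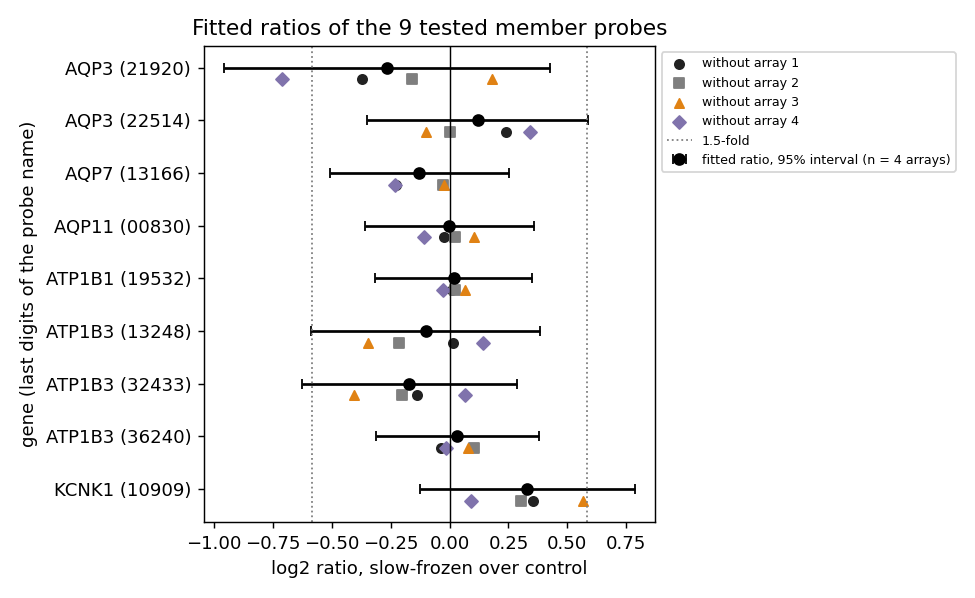
Fitted log2 ratio of SF over Control for the 9 tested member probes with its 95% interval from limma (black, n = 4 arrays) and the ratio when each array was left out in turn (coloured symbols below), with dotted lines at a 1.5-fold difference. All intervals include 0, and leaving out array 3 or array 4 moves AQP3, KCNK1 and the dim ATP1B3 probes (EMBV3_13248 and EMBV3_32433) the most.

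Other genes of the same machinery were taken from lists drawn up by function. Of the other aquaporins 4 were tested, 3 above 0 and 1 below with 0 under an unadjusted p of 0.05: AQP5, the water channel of glands, had 0.08 ± 0.18 (SE, n = 4), AQP4, the water channel of astrocytes, 0.16 ± 0.14, AQP2, the vasopressin-regulated channel of the collecting duct, -0.02 ± 0.15, and AQP6, an intracellular channel of the kidney, 0.0094 ± 0.16. Of these, AQP5 was detected in all 8 readings and the probes of AQP4 and AQP6 in 4. AQP5 lay below 0 without array 1 and without array 4, at -0.09 at the lowest. With median centring in place of loess AQP2 had 0.03, and AQP6 lay below 0 with plain or no background subtraction, quantile normalization, mean spot signals and the deposited ratios. Among the other subunits and regulators of the sodium pump 3 were tested, also with 0 under an unadjusted p of 0.05: the beta subunit ATP1B2 had 0.06 ± 0.15, the alpha subunit ATP1A4, known from sperm, -0.02 ± 0.14, and FXYD3, a small membrane protein that modulates the pump, -0.22 ± 0.17 (SE, n = 4 each). ATP1A4 lay above 0 with median centring and with mean spot signals, which also put ATP1B2 below 0. ATP1B4, FXYD1, FXYD2, FXYD5 and FXYD6 had probes that did not pass the filter.

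Of the other K2P channels 12 had a probe but only 3 were tested, all below 0: KCNK7 had -0.24 ± 0.16, KCNK10 -0.13 ± 0.14 and KCNK2, the mechanosensitive channel TREK-1, -0.0032 ± 0.14 (SE, n = 4 each), and KCNK2 turned to the other side with median centring. Ion exchangers, cotransporters and volume-regulated channels lay above 0 for 11 of 15, with a median of 0.11, which was 0.02 with median centring, a scaling that moved the median of all genes from -0.0037 to -0.13. LRRC8D, a subunit of the volume-regulated anion channel through which swollen cells lose chloride and osmolytes, had -0.40 ± 0.15 (unadjusted p = 0.0329 in limma), the chloride and bicarbonate exchanger SLC4A2 0.24 ± 0.14, and NHERF1, a scaffold of the sodium and proton exchanger of apical membranes, 0.34 ± 0.28 (SE, n = 4 each). SLC4A2 was above 0 on all 4 arrays, and NHERF1 rested on array 3, where it had 1.35. With median centring SLC4A2 had 0.02, NHERF1 0.07 and LRRC8D -0.62. In this list 0 genes above and 1 below had an unadjusted p under 0.05, and 0 passed the adjustment.

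Genes of the epithelial seal lay above 0 for 10 of 20, with 1 above and 0 below at an unadjusted p under 0.05. TJP3, a scaffold of tight junctions, had 0.34, 0.62, 0.50 and 0.32 on arrays 1 to 4, and its fitted ratio of 0.45 became 0.18 with median centring, while CLDN4, a barrier claudin, had 0.32 ± 0.17 (SE, n = 4) and was above 0 on all 4, but at -0.0064 with median centring. EZR, the linker of apical membranes to actin, had 1.59, -0.58, 2.36 and -0.27 on its brighter probe, while its other probe had a fitted ratio of -0.06. Genes of glycerol metabolism lay above 0 for 7 of 11, with a median of 0.11 that became -0.09 with median centring, and 0 had an unadjusted p under 0.05. MGLL, which frees glycerol from monoglycerides, had 0.27 ± 0.15, the lipase gene PNPLA3 0.27 ± 0.19 and GPD1L, a relative of glycerol-3-phosphate dehydrogenase, 0.18 ± 0.14 (SE, n = 4 each), and a dimmer probe had -0.08 for MGLL and 0.04 for PNPLA3. With median centring PNPLA3 had 0.0069 and GPD1L -0.09. GK, the kinase that traps glycerol in the cell, had -0.58, 0.84, -1.02 and 0.26 on arrays 1 to 4.

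Cell type markers varied between the arrays beside the members. The median ratio of the trophectoderm markers was 0.42, 0.11, 0.20 and -0.22 on arrays 1 to 4, above 0 on array 3 where the bright AQP3 probe was lowest and below 0 on array 4 where KCNK1 was highest. The inner cell mass markers had -0.12, 0.81, 0.32 and -0.16. Cumulus and granulosa markers, from the somatic cells around the oocyte, had -0.08, -0.22, 0.11 and -0.31, and 10 of 12 were tested. Hypoblast markers, of the epithelium that lines the cavity, had -0.67, -0.03, 0.54 and -0.19 with 5 of 7 tested. The mean log2 level of the trophectoderm markers ran from 11.08 to 11.58 in the SF pools, within the range of the Control pools, which reached 11.74. It ran in the SF and the Control pools, for the inner cell mass markers, from 9.45 to 9.93 and from 8.81 to 9.76, and for the cumulus and granulosa markers, from 7.79 to 7.97 and from 7.66 to 8.25, so each overlapped between the groups. Blood and leukocyte markers, of cells rich in AQP1 and AQP9, had a median of 0.01 with 4 of 8 above 0, and sperm transcripts -0.10 with 0 of 5 above 0. Of these transcripts PRM1 turned above 0 under 5 of 11 alternative settings. Fitted ratios lay above 0 for 9 of 13 trophectoderm, 6 of 7 inner cell mass and 3 of 5 hypoblast markers. The same held for 3 of 10 cumulus and granulosa markers, and for 5797 of 11834 genes in all. The part of cell composition in the member ratios was not tested.

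As a description over the 8 log2 levels, which share arrays and dyes in pairs, the genes with the most similar pattern were taken from those with a probe detected in all 8 pools. TAF15 and ISM1, each with r = 0.992, and LOC508153 with r = 0.976 came closest to the bright AQP3 probe, in which the low SF pool of array 3 dominates. MCU (r = 0.959), DUSP19 (r = 0.931) and HILPDA (r = 0.927) came closest to KCNK1. SEPSECS (r = 0.981), COL6A2 (r = 0.977) and ACCSL (r = 0.967) came closest to ATP1B1, whose levels moved little. The ATP1B1 readings lay at the detection limit, so that likeness describes signal near background. Among 8490 genes compared with AQP3 and with KCNK1, 56 and 6 exceeded an r of 0.9, and 21 of 8491 did so for ATP1B1.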

How the data were processed

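The deposited scanner files hold the intensity of each spot and its local background per channel as quantified by the authors with Array-Pro, neither corrected nor normalized (the 14 summary lines that end each file were dropped). A series table, likewise deposited, holds what the authors computed: centred log2 ratios whose direction follows the dyes. The study's methods describe background subtraction, lowess and quantile scaling between arrays without tying these steps to that table, whose fitted member ratios were equal to 2 decimals to those from plain subtraction with loess. It correlated with the log2 Cy5 over Cy3 ratios at 0.963 to 0.999 (column medians -0.00227, 0.00051, -0.00227 and 0.00171). Median intensities were corrected with normexp (offset 50) and each array was normalized by loess, with no weight on control spots (limma 3.58.1, R 4.3.3). Levels per pool came from the same ratios after Aquantile scaling. Ratios were turned to SF over Control by the labelled dyes. All 30473 tested probes were fitted with a treatment and a dye term, eBayes and Benjamini-Hochberg adjustment. The error is the moderated SE. Readings near the limit are compressed by the offset.

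Of 43794 probes, 21790 had 1 gene symbol, 0 several and 22004 none, and 1524 symbols were updated through the RefSeq synonyms of ARS-UCD2.0. In all, 31 marked spots were left out, 0 of them of members. Every member probe was named, with all tested pump subunits and aquaporins, the 3 genes with the smallest p in the other pathway lists and the 3 genes most like AQP3, ATP1B1 and KCNK1. GK is outside that rule and was chosen after its values were seen, as were the named markers. The members and lists were chosen with earlier results of these data known. The fit was run on simulated data with independent normal errors, which checks the code and not its calibration on these arrays. The contrast of aquaglyceroporins with AQP1 and AQP8 had no tested probe on the water channel side, and AQP11 took its place. Alternative settings changed the background correction, the normalization, the filter, the error model or the pairing, used mean signals or the deposited ratios, or left out an array. Figures used matplotlib 3.10.9.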

Additional observations from a re-analysis of the deposited data

Results flagged for a closer look

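In sets of 4 readings, the gap of the farthest one to its neighbour was compared with the whole range. Of 39 such sets among the member probes 2 stood out, and chance alone flags about 5% of sets. The SF level of AQP7 on probe EMBV3_13166 was 6.85 on array 2, where the other SF pools lay between 7.36 and 7.41. The SF level of ATP1B3 on probe EMBV3_13248 was 6.49 on array 4, where the others lay between 7.17 and 7.28. Both readings were below the detection limit, at 0.718 and 0.621 times.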

How the results depend on the processing

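No member probe passed the adjustment in limma under any alternative run. Apart from leaving out arrays, 85 of 95 member ratios kept their sign and 10 reversed. Settings that changed only the filter, the dye term, the error model or the pairing left each fitted member ratio as it was. They could not reverse a sign, yet they count among the 85. All 10 reversals arose where the background correction, the normalization or the signals used were changed. ATP1B1 had -0.00287 with plain background subtraction, -0.00173 without background correction, -0.00399 with mean spot signals and -0.00286 from the deposited ratios. Median centring gave -0.000867 for AQP3 (EMBV3_22514) and -0.301 for ATP1B3 (EMBV3_36240), which had -0.0516 with quantile normalization. Mean spot signals gave 0.0417 for AQP11 and 0.0835 and 0.00627 for ATP1B3 (EMBV3_13248 and EMBV3_32433). Of the members, 2 of 9 lay above 0 with median centring, which moved the median of all tested probes from 0.0024 to -0.081. Without a detection filter 7 of 13 lay above 0, around a median of -0.0022 for all probes. Probes under an unadjusted p of 0.05 numbered 1876 of 30473 with median centring, against 573 of 30473 in the main fit. They numbered 985 of 43794 without the filter and 304 of 19232 when all 8 readings had to be detected. Those also past 1.5-fold numbered 519 with median centring and 17 with mean spot signals, against 123. The cause was not tested.

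With 1 array left out, the dye term remained, so the other array of that orientation weighed as much as both of the opposite one. The residual error then came only from the arrays of the opposite orientation. The p-values and counts of these fits therefore do not measure the spread over all pools. Of 36 member ratios 26 kept their sign. They ran from -0.71 to 0.18 for AQP3 (EMBV3_21920), -0.102 to 0.343 (EMBV3_22514), -0.107 to 0.105 for AQP11, -0.0299 to 0.0641 for ATP1B1, and for ATP1B3 from -0.345 to 0.144 (EMBV3_13248), -0.406 to 0.066 (EMBV3_32433) and -0.0364 to 0.102 (EMBV3_36240). Probes passing the adjustment ran from 0 to 1, the 1 arising without array 3, where the lowest adjusted p was 0.00375. Those under an unadjusted p of 0.05 ran from 587 to 1963, and those also past 1.5-fold from 350 to 941, the highest counts arising without array 4. The pools of a pair shared an array, so the ratio already paired them. Without this pairing (no replicate block) 406 probes were under an unadjusted p of 0.05, 104 also past 1.5-fold, and 0 members were called. Readings near background limit what AQP1, AQP7, AQP8, AQP9, ATP1B1 and the dim ATP1B3 probes can show.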
